A study of Mus musculus with 4 samples.

Results

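Atf4 and 9 genes of the amino acid stress response were followed across the 4 RNA-seq libraries of the series. The genes were taken by symbol (Atf4, Atf5, Ddit3, Trib3, Chac1, Asns, Sesn2, Cth, Cebpb and Ddit4), with no threshold on a measured value, although earlier results of these data were known when the group was named. All 10 were found among 23366 genes with FPKM, fragment numbers divided by transcript length and by the size of the library, and all 10 were among the 11640 genes kept for averaging at least 1 FPKM over the libraries. The libraries came from immortalized mouse embryonic fibroblasts (MEFs), a connective tissue cell line, kept in DMEM with 10% serum and carrying Myc, MycN, a protein the labels call Minimal Myc, or empty vector. All 4 cultures, vector included, had received an adenovirus carrying Cre recombinase and a recovery given as 48 with no unit, and the series design describes the cells without an added Myc protein as Myc-deleted. Each group is 1 culture and 1 library, so no difference below has a replicate check, no test was run, and clonal or culture differences cannot be told apart from the effect of the Myc protein.

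Atf4 is a basic leucine zipper (bZIP) transcription factor and the main effector of the integrated stress response. When amino acids run short, or unfolded protein, lack of heme or double-stranded RNA is sensed, a kinase phosphorylates the initiation factor eIF2, bulk translation drops, and upstream reading frames let the Atf4 message be translated more. The Atf4 protein, often paired with a C/EBP factor, then switches on genes for amino acid synthesis and uptake, glutathione turnover, restraint of the mTORC1 growth kinase and, under lasting stress, cell death. Much of its control is therefore translational, and mRNA levels such as those here do not show the amount of Atf4 protein.

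The DNA element linked to Atf4 is the C/EBP-ATF response element, written here as TGATGNAA and searched on both strands in the RefSeq promoter windows of build GRCm38.p6, which run from 250 bases before to 50 bases after each gene's start. Windows were found for 9 of the 10 genes (10 windows, 2 of them of Atf5), all but Cth. TGATGNAA was present in 3 of them, those of Asns, Chac1 and Trib3, against 3.97% of all 32851 windows. The stretches that carry it are shown because these 3 genes had different patterns over the libraries. They are written 5′ to 3′ on the gene's strand, with the match in capitals; in Chac1 and Trib3 it lies on the opposite strand and is printed as the reverse complement of the element.
Asns, minus strand, chr6:7693210-7693299: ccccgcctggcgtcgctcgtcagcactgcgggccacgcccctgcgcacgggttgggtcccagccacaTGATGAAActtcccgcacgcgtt
Chac1, plus strand, chr2:119351022-119351111: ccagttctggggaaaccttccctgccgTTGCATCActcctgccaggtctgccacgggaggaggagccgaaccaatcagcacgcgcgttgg
Trib3, minus strand, chr2:152344031-152344060: agattagctcaggtTTACATCAgccgggcg
The first base of the match lay 23 bases before the start in Asns, 193 bases before it in Chac1 and at base 15 of the transcript in Trib3.

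The shorter element TGACG, a part of the sites of ATF and CREB factors that shares no overlapping match with TGATGNAA here, was present in the windows of 5 of the genes (Asns, Atf4, Cebpb, Chac1 and Trib3) and in 20.8% of all windows. Cebpb is shown because its window held 3 matches and its level was above vector in all 3 Myc protein libraries; 2 of the matches, on the plus strand, are in the stretch.
Cebpb, plus strand, chr2:167688825-167688914: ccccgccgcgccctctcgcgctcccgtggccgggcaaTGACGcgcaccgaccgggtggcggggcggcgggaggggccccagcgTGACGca
The E-box CACGTG, the core sequence to which Myc and Max bind, was present in 7.15% of all windows and in 0 of the 10 windows of these genes. The windows are short, so this says nothing about sites farther away, and a match is a string of letters, not evidence of binding.

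Fragment numbers were estimated from the steps of the lowest FPKM values, each step being 1 fragment. Of the values worth 1 to 3 fragments, 68.7% to 69.3% fell within 0.1 fragment of a whole number. The size of 1 fragment was fitted to such low values, so this share is not a separate check of it. The steps gave an estimated depth of 68300000 fragments for the Myc library, 93400000 for MycN, 88800000 for Minimal Myc and 67400000 for vector. On that estimate the 10 genes were read with 579 fragments (Cth in MycN) to 38270 fragments (Atf4 in Minimal Myc), which gives counting errors of 4.16% to 0.511%. The intervals below are 95% intervals of counting error, based on these estimates. They say nothing about variation between cultures, and fragments copied by PCR are not independent molecules. Of 11 fibroblast markers, 10 reached 1 FPKM, all but Lum, with a summed level of 2612 to 3559 FPKM. Of the epithelial and endothelial markers, 0 of 7 and 0 of 5 did. Among immune markers 2 of 6 did (Cd68 and Csf1r), with a summed level of 3.01 to 8.18 FPKM. Among skeletal muscle markers 2 of 5 did (Des and Acta1), with a sum of 14.4 to 19.9 FPKM. Among neural markers 2 of 5 did (Tubb3 and Map2), with a sum of 12.4 to 23.9 FPKM. Ptprc, Myod1 and Rbfox3 were near 0. Fabp4, a marker of fat cells, was 52.96 FPKM in MycN and 7.61 to 9.80 FPKM in the other libraries, with Adipoq, Plin1 and Lep near 0 throughout, and the part of this in the results was not tested. Myc itself was 141 FPKM in Myc, 4.36 in MycN, 32.6 in Minimal Myc and 22.2 in vector, so the vector library still holds Myc transcript. Mycn was 0.275 FPKM in Myc, 178 FPKM in MycN, 95.9 FPKM in Minimal Myc and 0.390 FPKM in vector. The Minimal Myc library thus holds much Mycn signal, the labels do not describe the makeup of Minimal Myc, and the part of this in the comparisons of Minimal Myc with MycN was not tested. FPKM are shares of a library, and most genes stood above vector: the median difference of log2(FPKM + 1) over the 11640 genes was 0.47 with Myc, 0.42 with MycN and 0.47 with Minimal Myc. Differences from vector are therefore also given relative to that median, as centred values. The authors also deposited a table labelled nano-scaled, here called scaled FPKM, in which each library is multiplied by 1 factor (2.04 on Myc, 1.30 on MycN, 1.28 on Minimal Myc and 1 on vector). The labels state that synthetic RNAs were added by cell number, and the sources used here do not say how the factors were made. Levels, orders and differences below are in unscaled FPKM unless scaled FPKM is named.

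The regulators were examined before their targets. In unscaled FPKM Atf4 differed little between the libraries. It stood at 213.9 FPKM in Myc, 211 FPKM in MycN, 283 FPKM in Minimal Myc and 203 FPKM in vector. Minimal Myc was the highest and the other 3 lay close together. In bulk RNA, fewer cells that express a gene and less of its RNA per cell cannot be told apart. The ratio of MycN to Myc, 0.987, had a counting interval of 0.970 to 1.004. Its ratio to vector was 1.05 with Myc, 1.04 with MycN and 1.39 with Minimal Myc. On the log2(FPKM + 1) scale these were 0.08, 0.06 and 0.48, which in Minimal Myc equals the shift of the median gene (0.00 after centring) and in Myc and MycN lies below it (-0.40 and -0.36). Over the 4 libraries Atf4 spanned 0.48 log2 units, a range wider than that of only 15.9% of the genes kept, while its level ranked above 96.9% to 98.0% of them. In scaled FPKM it was 437 in Myc, 275 in MycN, 363 in Minimal Myc and 203 in vector, so that Myc was the highest library and its log2 difference from vector, 1.10, passed 2-fold.

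Atf5, a related bZIP factor whose message is also under translational control and whose gene is an Atf4 target, varied far more. It was 56.6 FPKM in Myc, 28.6 FPKM in MycN, 134 FPKM in Minimal Myc and 98.9 FPKM in vector. The MycN library was the lowest, at a ratio to vector of 0.289 (0.279 to 0.2995), and Myc was also under vector, at 0.572 (0.555 to 0.591). Its log2 difference in MycN, -1.76, placed it among the lowest 0.567% of genes in that comparison. The centred log2 differences of Atf5 were -0.04 with Minimal Myc, -2.17 with MycN and -1.27 with Myc. Its level with Minimal Myc thus lay close to the shift of the median gene. The order was Minimal Myc, vector, Myc and MycN, and no neighbouring pair was within counting error. In scaled FPKM Myc stood above vector, at 115.5 against 98.9, and MycN remained the lowest.

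Ddit3 encodes CHOP, a C/EBP-family partner linked to cell death under unresolved stress. Its level was 63.5 FPKM in Myc, 37.6 FPKM in MycN, 90.7 FPKM in Minimal Myc and 65.5 FPKM in vector. Myc and vector could not be separated by counting error (ratio 0.969, interval 0.921 to 1.02). MycN was at 0.574 of vector, and Minimal Myc at 1.39 times vector. The centred log2 differences of Ddit3 were -0.01 with Minimal Myc, -1.20 with MycN and -0.52 with Myc. Its level with Minimal Myc thus followed the shift of the median gene, and with MycN it passed 2-fold lower after centring. The order of Ddit3 over the libraries was that of Atf5. In scaled FPKM the order was Myc, Minimal Myc, vector and MycN. Exons of Ddit3 and of Sesn2 overlap those of another locus in the GENCODE annotation of the later mouse build, and the sources used here do not say whether the authors' counting used strand, so their values may hold fragments of the overlapping locus.

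Cebpb, a bZIP partner of Atf4 that also drives acute phase and inflammatory genes, was above vector in every Myc protein library by more than the median gene. It was 150 FPKM in Myc, 146 FPKM in MycN, 232 FPKM in Minimal Myc and 79.3 FPKM in vector. The log2 differences from vector were 0.91, 0.87 and 1.54, or 0.44, 0.45 and 1.07 after centring. Myc and MycN were nearly level, with a ratio of MycN to Myc of 0.970 (0.948 to 0.992). Cebpd, its close relative, was 10.2 FPKM in Myc, 6.99 FPKM in MycN, 36.6 FPKM in Minimal Myc and 5.45 FPKM in vector, so Minimal Myc was the highest library for both C/EBP genes. In scaled FPKM this held for Cebpd, while Cebpb was slightly higher in Myc (306 FPKM) than in Minimal Myc (298 FPKM).

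Trib3, a pseudokinase that binds Atf4 and acts back on its activity, was 10.5 FPKM in Myc, 8.94 FPKM in MycN, 12.9 FPKM in Minimal Myc and 14.1 FPKM in vector. Vector was the highest library, which was so for 5.53% of all genes kept. Set over vector, Myc stood at 0.746, MycN at 0.633 and Minimal Myc at 0.917, the last with a counting interval of 0.861 to 0.977. Relative to the median gene all 3 lay lower, at -0.86, -1.02 and -0.59 log2 units. In scaled FPKM Trib3 was 21.5 in Myc, 11.6 in MycN, 16.6 in Minimal Myc and 14.1 in vector, with Myc as the highest library.

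**Figure D1:**
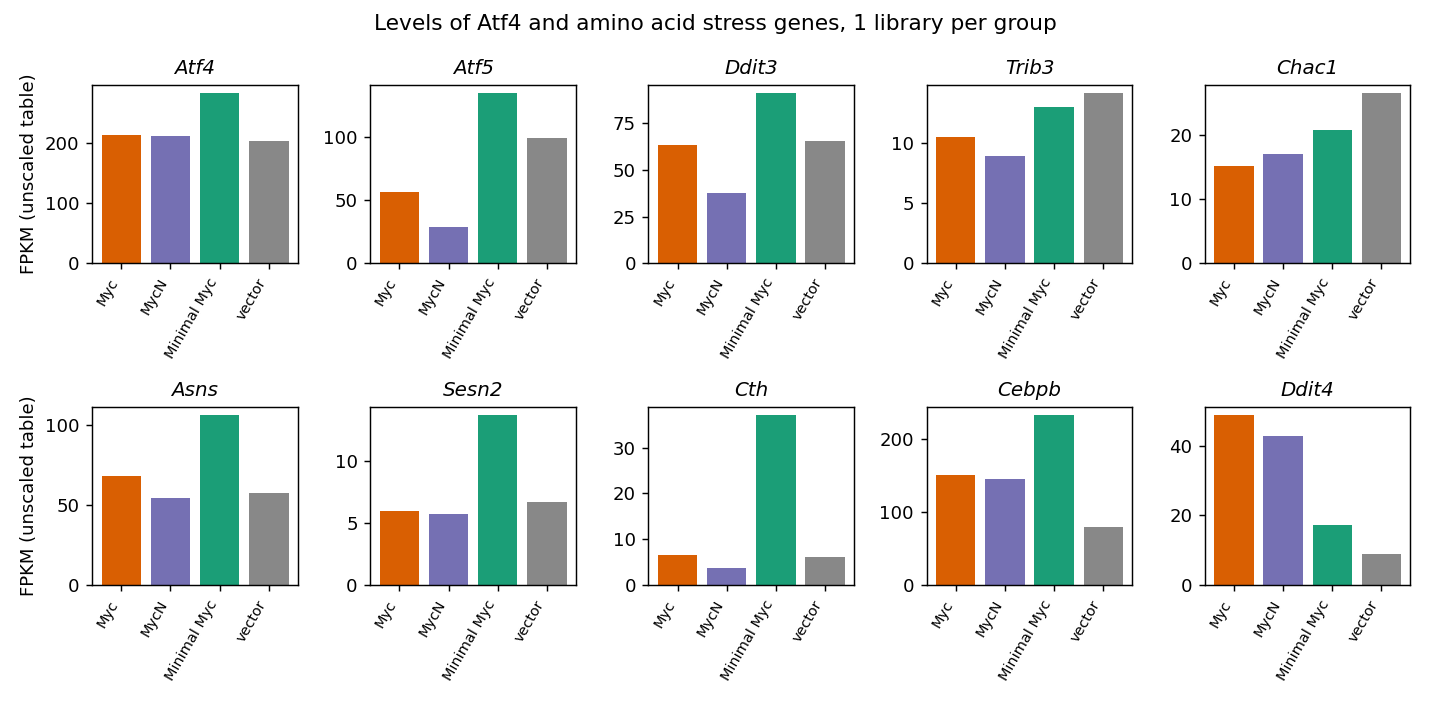
Level of each of the 10 genes in unscaled FPKM (y axis, from 0, a separate scale per gene) in the Myc, MycN, Minimal Myc and vector libraries, 1 bar per library. Minimal Myc is the highest bar for 7 genes, vector for Trib3 and Chac1, and Myc for Ddit4; MycN is the lowest for 6.

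Among the effectors, the enzymes of amino acid and glutathione metabolism did not share 1 pattern. Cth, cystathionine gamma-lyase, which makes cysteine from cystathionine, had the widest range of the 10 genes. It was 6.47 FPKM in Myc, 3.84 FPKM in MycN, 37.1 FPKM in Minimal Myc and 6.24 FPKM in vector. Minimal Myc stood apart from the other 3 libraries, at 5.94 times vector (5.49 to 6.44) and 9.67 times MycN (8.87 to 10.5). Myc and vector could not be separated by counting error (1.04, 0.933 to 1.15). The log2 difference of Minimal Myc from vector, 2.39, ranked above 98.9% of genes, and it was 1.92 after centring. In scaled FPKM Cth was 13.2 in Myc, 4.99 in MycN, 47.6 in Minimal Myc and 6.24 in vector. There Myc stood above vector, at a log2 difference of 0.97.

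Asns, asparagine synthetase, followed Cth in direction by a smaller margin. It was 68.3 FPKM in Myc, 54.3 FPKM in MycN, 106 FPKM in Minimal Myc and 57.5 FPKM in vector. Over vector it was 1.19 times as high in Myc, 0.944 times in MycN and 1.85 times in Minimal Myc. In log2(FPKM + 1) none reached the 2-fold threshold of 1, and after centring they were -0.23, -0.50 and 0.40. In scaled FPKM the log2 differences of Asns were 1.26, 0.29 and 1.23, so those of Myc and Minimal Myc passed 2-fold. Chac1, which breaks down glutathione, went the other way in unscaled FPKM, with vector as its highest library. Chac1 was 15.2 FPKM in Myc, 17.1 FPKM in MycN, 20.8 FPKM in Minimal Myc and 26.6 FPKM in vector. The ratio of Myc to vector was 0.571 (0.536 to 0.608), and the centred log2 differences were -1.24, -1.03 and -0.81 in the Myc, MycN and Minimal Myc libraries. In scaled FPKM Chac1 was 30.9 in Myc, 22.2 in MycN, 26.7 in Minimal Myc and 26.6 in vector, so Myc was the highest library and vector lay just under Minimal Myc. In unscaled FPKM Asns, Chac1 and Trib3, which hold the TGATGNAA stretches printed above, thus split between a gene highest in Minimal Myc and a pair highest in vector, while in scaled FPKM all 3 were highest in Myc.

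Sesn2 and Ddit4 both encode brakes on mTORC1, and their patterns differed. Sesn2, a leucine sensor that holds back mTORC1 through the GATOR2 complex, was 5.98 FPKM in Myc, 5.76 FPKM in MycN, 13.7 FPKM in Minimal Myc and 6.67 FPKM in vector. Minimal Myc was at 2.05 times vector (1.93 to 2.18), while MycN and Myc could not be separated (0.963, 0.897 to 1.03). Because of the added 1 FPKM, its log2 difference of 0.94 in Minimal Myc stays under the 2-fold threshold. The centred values of Sesn2 were 0.47 with Minimal Myc, -0.60 with MycN and -0.61 with Myc.

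Ddit4, also called Redd1, which acts on mTORC1 through the Tsc1-Tsc2 complex and also responds to hypoxia and glucocorticoids, had the largest differences from vector in Myc and MycN of the 10 genes. It was 48.8 FPKM in Myc, 42.9 FPKM in MycN, 17.2 FPKM in Minimal Myc and 8.97 FPKM in vector. Myc and MycN were both far above the other libraries, at 5.44 (5.07 to 5.83) and 4.78 (4.46 to 5.12) times vector. Their log2 differences of 2.32 and 2.14 ranked above 99.7% and 99.6% of genes. After centring these were 1.85 and 1.72, and that of Minimal Myc was 0.39. Ddit4 alone of the 10 genes was lower in Minimal Myc than in Myc (ratio 0.353) and MycN (0.401) in unscaled FPKM. In scaled FPKM 7 of the 10 were lower in Minimal Myc than in Myc, as were 89.5% of all genes.

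Against vector, then, few of the genes differed by 2-fold. Ddit4 did so with both Myc and MycN, and Cth and Cebpb with Minimal Myc. In Myc, 1 of 10 was at least 2-fold higher (Ddit4), where 11.2% of all genes were, and 0 were at least 2-fold lower, where 1.56% were. In MycN, 1 was higher (Ddit4, against 7.65% of all genes) and 1 lower (Atf5, against 1.86%). In Minimal Myc, 2 were higher (Cth and Cebpb, against 13.6%) and 0 lower (1.68%). The counts higher are thus near the share over all genes. The 10 differences had a median of 0.00 with Myc, -0.38 with MycN and 0.67 with Minimal Myc, beside medians over all genes of 0.47, 0.42 and 0.47. Of the 10 genes, 5 stood above vector with Myc, 3 with MycN and 8 with Minimal Myc, where 83.5%, 81.8% and 83.0% of all genes did.

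Scaling changes these splits. After centring, 1 gene was at least 2-fold higher and 2 lower in Myc (Atf5 and Chac1), 1 higher and 5 lower in MycN (Atf5, Ddit3, Trib3, Chac1 and Cth), and 2 higher and 0 lower in Minimal Myc. Over all genes 1.87%, 1.86% and 3.71% were then higher and 4.38%, 4.19% and 4.68% lower. In scaled FPKM, 4 of the 10 were at least 2-fold higher with Myc (Atf4, Asns, Cebpb and Ddit4) and 2 with MycN (Cebpb and Ddit4). With Minimal Myc 5 were (Asns, Sesn2, Cth, Cebpb and Ddit4). Of all genes, 78.5%, 27.4% and 33.7% were at least 2-fold higher in scaled FPKM. There, all 10 stood above vector in Myc and in Minimal Myc and 5 in MycN. Of all genes, 97.3% stood above vector in Myc, 91.5% in Minimal Myc and 91.7% in MycN. Whether Atf5, Ddit3, Trib3, Chac1 or Sesn2 lay below vector in Myc therefore depends on the table: all 5 were below it in unscaled FPKM and above it in scaled FPKM. Atf5, Ddit3, Trib3, Chac1 and Cth lay below vector in MycN in both tables.

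**Figure D2:**
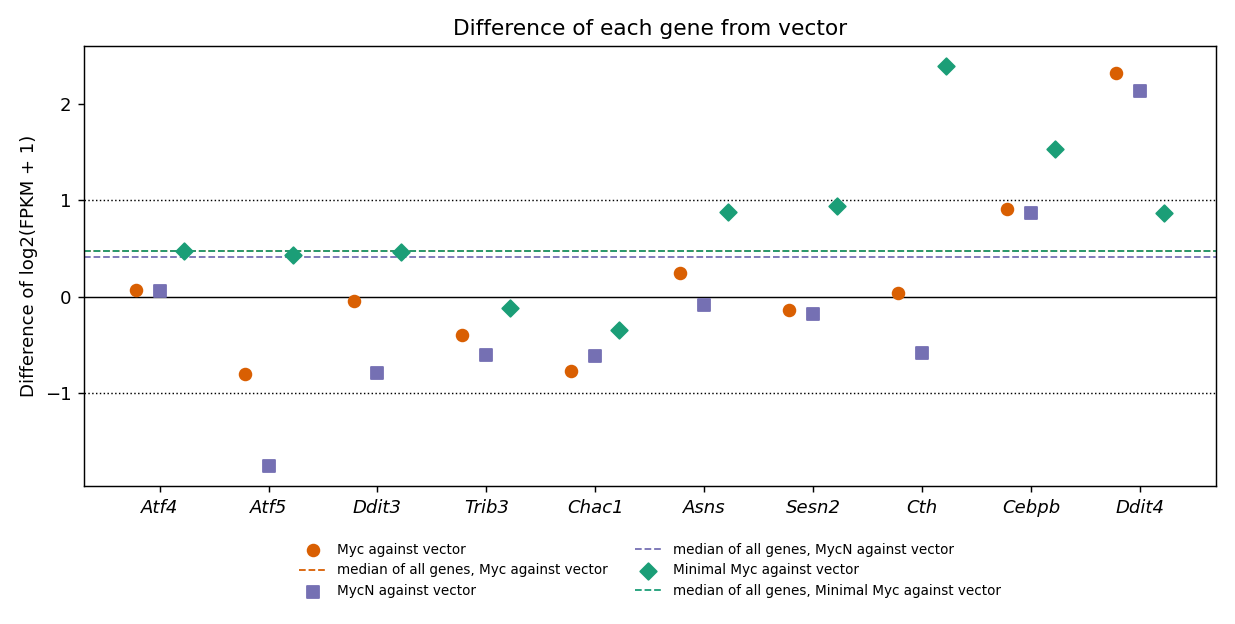
Difference of log2(unscaled FPKM + 1) from vector (y axis) for each gene (x axis) in Myc (circles), MycN (squares) and Minimal Myc (diamonds), with dotted lines at 2-fold and dashed lines at the median of all 11640 genes (0.47, 0.42 and 0.47, the lines of Myc and Minimal Myc coinciding). Most circles and squares lie under the dashed lines, apart from Ddit4 and Cebpb, and the diamond of Cth lies at 2.39.

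The libraries with a Myc protein differ less from each other in the level of the median gene, so they were also set against each other. These comparisons share libraries with those above and are not separate evidence. Between Minimal Myc and MycN, 9 of the 10 genes were higher in Minimal Myc, all but Ddit4, where 53.3% of all genes were. Of these, 4 were at least 2-fold higher (Atf5, Ddit3, Sesn2 and Cth, against 6.94% of all genes) and 1 was lower (Ddit4, against 3.69%). The median of the 10 was 0.81 and that of all genes 0.05. The ratio of Minimal Myc to MycN was 4.70 for Atf5 and 2.41 for Ddit3.

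Between Minimal Myc and Myc, 9 of 10 were again higher, all but Ddit4, where 47.3% of all genes were. At 2-fold, 3 were higher (Atf5, Sesn2 and Cth, against 4.48%) and 1 lower (Ddit4, against 2.16%). The median was 0.57, and that of all genes -0.03. In scaled FPKM, in which Myc has the larger factor, 3 of 10 were higher in Minimal Myc and 7 lower. Of all genes, 10.5% were then higher and 89.5% lower. By at least 2-fold, 1 was higher (Cth, against 2.44% of all genes) and 1 lower (Ddit4, against 17.7%). The scaled median of the 10 was -0.09, and that of all genes -0.64. Against MycN, whose factor is near that of Minimal Myc, scaling left the split at 9 and 1, where 52.2% of all genes were higher.

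Between MycN and Myc, 9 of 10 genes were lower in MycN, all but Chac1, where 56.4% of all genes were. After centring on the median gene 4 were higher and 6 lower, since the differences of Atf4 (-0.02), Sesn2 (-0.05) and Cebpb (-0.04) changed sign. In scaled FPKM all 10 were lower, as were 92.3% of all genes. By 2-fold, 0 were higher (1.95% of all genes) and 0 lower (2.74%), and the median was -0.20 against -0.06 for all genes. Atf5 came nearest, at a log2 difference of -0.96, followed by Ddit3 (-0.74) and Cth (-0.63). In scaled FPKM 3 were at least 2-fold lower in MycN (Atf5, Ddit3 and Cth), where 20.2% of all genes were.

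**Figure D3:**
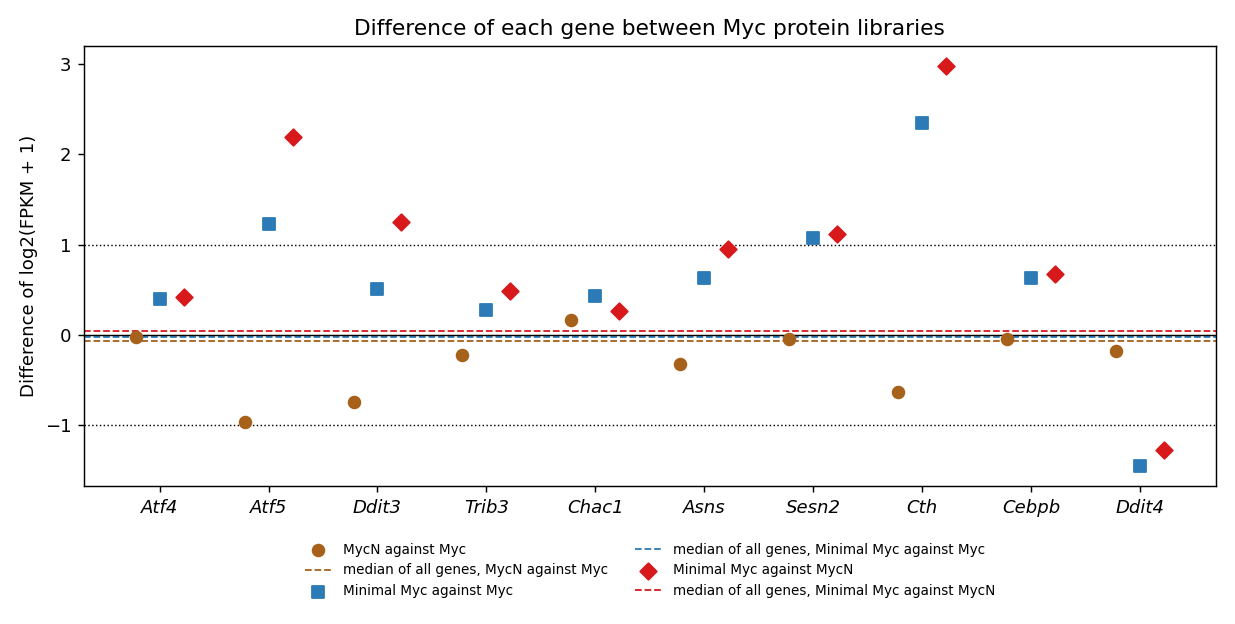
Difference of log2(unscaled FPKM + 1) between Myc protein libraries (y axis) for each gene (x axis), for MycN against Myc (circles), Minimal Myc against Myc (squares) and Minimal Myc against MycN (diamonds), with dotted lines at 2-fold and dashed lines at the median of all genes. Squares and diamonds lie above 0 for every gene but Ddit4, where they are at -1.45 and -1.27.

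By order of level in unscaled FPKM, Minimal Myc was the highest library for 7 of the 10 genes (Atf4, Atf5, Ddit3, Asns, Sesn2, Cth and Cebpb), as it was for 35.8% of all genes kept. MycN was the lowest for 6 (Atf5, Ddit3, Trib3, Asns, Sesn2 and Cth), as it was for 11.8%. Vector was the lowest library for 3 (Atf4, Cebpb and Ddit4), as it was for 68.0% of all genes. In scaled FPKM Myc was the highest library for 7 (Atf4, Ddit3, Trib3, Chac1, Asns, Cebpb and Ddit4), as it was for 83.6% of all genes, and Minimal Myc for 3 (Atf5, Sesn2 and Cth), as it was for 9.24%. There MycN was the lowest library for 5 (Atf5, Ddit3, Trib3, Chac1 and Cth), as it was for 6.17%, and vector for 5, as it was for 85.5%. The order of each gene is a description of these 4 libraries.

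Genes with the most similar profiles were sought among 10791 genes by the Euclidean distance of log2(FPKM + 1), centred on the gene's own mean, over the 4 libraries. Nearest to Atf4 were Spred1 (distance 0.03), Kctd10 (0.04), Senp5 (0.04), Osbpl1a (0.05) and Arih1 (0.05). The 9 other genes were not among its neighbours: the nearest, Asns, ranked 2186 (distance 0.40), and Ddit4 was the farthest, at rank 10575 (1.99). This distance counts the size of differences as well as their direction. Atf4 has a narrow range, so a gene with a wide range lies far from it. Nearest to the mean profile of the 10 genes were Csf1 (0.02), Ulk2 (0.03), Ssna1 (0.05), Ier3ip1 (0.05) and Atp7a (0.06). With 4 libraries many genes have like profiles. Csf1 was 101 FPKM in Myc, 82.7 FPKM in MycN, 157 FPKM in Minimal Myc and 91.5 FPKM in vector.

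The wider pathway was read from 8 gene lists, in which some genes stand in more than 1 list. Their counts at 2-fold are to be read beside the shares of all genes: in unscaled FPKM 11.2% were higher and 1.56% lower in Myc, 7.65% and 1.86% in MycN, and 13.6% and 1.68% in Minimal Myc. After centring the shares higher were 1.87%, 1.86% and 3.71%, and in scaled FPKM 78.5%, 27.4% and 33.7%. The shares lower after centring were 4.38%, 4.19% and 4.68%. In scaled FPKM 58, 145 and 122 of the 11640 genes were lower in Myc, MycN and Minimal Myc. Upstream, of the 4 eIF2 kinases, Eif2ak2 (Pkr), which binds double-stranded RNA and is itself an interferon-induced gene, differed most. Eif2ak2 was 13.8 FPKM in Myc, 12.5 FPKM in MycN, 48.4 FPKM in Minimal Myc and 11.3 FPKM in vector. The amino acid sensor kinase Eif2ak4 (Gcn2) was 10.8 FPKM in Myc, 10.7 FPKM in MycN, 8.86 FPKM in Minimal Myc and 6.32 FPKM in vector. Eif2ak1 (Hri), the heme-regulated kinase, was 24.8, 19.9 and 24.5 FPKM in Myc, MycN and Minimal Myc, against 13.5 FPKM in vector. Eif2ak3 (Perk), the kinase of the endoplasmic reticulum, was 5.17, 8.30 and 4.45 FPKM in the same libraries, against 4.95 FPKM in vector. Thus 1 of the kinases, Eif2ak2, passed 2-fold in unscaled FPKM, in Minimal Myc alone. In scaled FPKM Eif2ak2 and Eif2ak1 passed it in Myc and Minimal Myc, Eif2ak4 in Myc and MycN, and Eif2ak3 in no library.

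Over the 17 genes of eIF2, its kinases, exchange factor and phosphatases, 5 were at least 2-fold higher than vector with Myc, 1 with MycN and 4 with Minimal Myc, and 0 were lower in any. The medians were 0.82, 0.47 and 0.82. After centring, 0, 0 and 2 were higher and 1 was lower, in Minimal Myc, and in scaled FPKM 15, 3 and 11 were higher. Eif2s1, the eIF2 subunit that is phosphorylated, was 36.7 FPKM in Myc, 18.8 FPKM in MycN, 30.03 FPKM in Minimal Myc and 13.4 FPKM in vector. Dnajc3, a chaperone that also inhibits eIF2 kinases, was 14.3 FPKM in Myc, 7.24 FPKM in MycN, 21.4 FPKM in Minimal Myc and 7.05 FPKM in vector.

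Of the other bZIP factors, 18 of 20 were measured, with Cebpa and Batf under the minimum. With Myc 2 were at least 2-fold higher, with MycN 2 and with Minimal Myc 3, and 0 were lower, with medians of 0.30, 0.63 and 0.32. Centred, 0, 1 and 1 were higher and 1, 0 and 1 lower, and in scaled FPKM 11, 9 and 6 were higher. Batf3 was 7.15 FPKM in Myc, 9.11 FPKM in MycN, 2.61 FPKM in Minimal Myc and 2.01 FPKM in vector. Nfe2l2, the antioxidant regulator Nrf2, was 40.8 FPKM in Myc, 37.7 FPKM in MycN, 53.5 FPKM in Minimal Myc and 22.9 FPKM in vector. Thus the bZIP genes furthest from vector, Cebpd and Batf3, were highest in different libraries.

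Enzymes of amino acid and one-carbon metabolism (15 of 16 measured) had 1 gene at least 2-fold higher with Myc, 3 with MycN and 3 with Minimal Myc, and 0 lower, with medians of 0.54, 0.33 and 0.74. Centring left 0 higher in any library and 1 lower, in Myc, and scaling gave 14, 4 and 9 higher. Mthfd2, a mitochondrial folate enzyme, was 75.7 FPKM in Myc, 47.3 FPKM in MycN, 119 FPKM in Minimal Myc and 49.3 FPKM in vector. Pck2, mitochondrial phosphoenolpyruvate carboxykinase, was 16.4 FPKM in Myc, 18.1 FPKM in MycN, 27.9 FPKM in Minimal Myc and 12.1 FPKM in vector. These had their highest level in Minimal Myc, as Asns and Cth did, but in scaled FPKM Mthfd2 and Asns were highest in Myc. Aldh18a1, which starts proline synthesis from glutamate, was instead highest in MycN, at 39.6 FPKM, with 28.0 FPKM in Myc, 30.2 FPKM in Minimal Myc and 16.6 FPKM in vector, though in scaled FPKM it too was highest in Myc.

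Of the amino acid carriers, 11 of 12 were measured, and 1 was at least 2-fold higher with Myc, 2 with MycN and 1 with Minimal Myc, with 0 lower and medians of 0.46, 0.59 and 0.43. Centred counts were 1, 1 and 0 higher and 0 lower, and scaled counts 11, 5 and 2 higher. Slc43a1, a carrier of large neutral amino acids, was 4.08 FPKM in Myc, 7.70 FPKM in MycN, 0.517 FPKM in Minimal Myc and 0.440 FPKM in vector. It was thus high with Myc and MycN and at the vector level with Minimal Myc. Slc6a9, a glycine carrier, was 8.34, 9.95 and 10.9 FPKM in Myc, MycN and Minimal Myc, against 4.85 FPKM in vector. Slc7a6, a carrier of cationic and neutral amino acids, was 25.3, 27.3 and 20.6 FPKM in those libraries, against 12.7 FPKM in vector.

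Of 13 tRNA synthetases and tRNA export genes, which Atf4 raises so that amino acids can be charged, 2 were at least 2-fold higher with Myc, 0 with MycN and 1 with Minimal Myc, and 0 were lower. The medians were 0.36, 0.09 and 0.59. With centring 0 were higher or lower in any library, and with scaling 12, 1 and 5 were higher. Eprs, which charges both glutamate and proline, was 62.5 FPKM in Myc, 48.8 FPKM in MycN, 79.5 FPKM in Minimal Myc and 29.4 FPKM in vector. Xpot, the tRNA exporter, was 32.9 FPKM in Myc, 23.3 FPKM in MycN, 30.9 FPKM in Minimal Myc and 15.9 FPKM in vector. Iars, the isoleucine enzyme, was 63.1 FPKM in Myc, 41.3 FPKM in MycN, 51.8 FPKM in Minimal Myc and 34.4 FPKM in vector. MycN was the nearest to vector of the 3 Myc protein libraries for these 3 genes, which were picked for their distance from vector. For Nars and Tars, also in this list, Myc was nearer to vector than MycN.

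Other stress and secreted targets (17 of 20 measured) had the lowest medians of the 8 lists in Myc and Minimal Myc, with medians of 0.04 with Myc, 0.13 with MycN and -0.14 with Minimal Myc. At 2-fold, 1 was higher and 2 lower in Myc, 0 higher and 2 lower in MycN, and 3 higher and 0 lower in Minimal Myc. Centring turned the split in Minimal Myc to 1 higher and 3 lower and left 1 higher and 2 lower in Myc and 0 and 2 in MycN. In scaled FPKM 9, 1 and 3 were higher and 1, 1 and 0 lower. Adm2, a secreted peptide of the adrenomedullin family, was 1.04 FPKM in Myc, 0.634 FPKM in MycN, 6.36 FPKM in Minimal Myc and 7.34 FPKM in vector. Stc2, a secreted glycoprotein, was 2.94 FPKM in Myc, 0.645 FPKM in MycN, 9.41 FPKM in Minimal Myc and 2.37 FPKM in vector. MycN was the lowest library for both, as it was for Atf5 and Cth. Txnip, which binds thioredoxin and responds to glucose, was 47.6 FPKM in Myc, 17.8 FPKM in MycN, 32.5 FPKM in Minimal Myc and 14.4 FPKM in vector.

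Genes of mTORC1 and its nutrient sensors (23 of 24 measured) had medians of 0.44, 0.38 and 0.39, with 2, 1 and 0 genes at least 2-fold higher in Myc, MycN and Minimal Myc and 0 lower. After centring 0 passed 2-fold in either direction, and in scaled FPKM 21, 6 and 4 were higher. Sesn1, a relative of Sesn2 and a p53 target, was 14.05 FPKM in Myc, 10.9 FPKM in MycN, 6.09 FPKM in Minimal Myc and 5.96 FPKM in vector, so the Sesn2 and Sesn1 genes had opposite orders between Minimal Myc and either Myc or MycN. Sesn3 was 7.65, 7.68 and 6.03 FPKM in Myc, MycN and Minimal Myc, against 3.03 FPKM in vector. Mios, a GATOR2 subunit, was 6.82, 7.29 and 7.36 FPKM, against 3.48 FPKM in vector. The Xbp1 and Atf6 branches of endoplasmic reticulum stress (16 genes) had medians of 0.58, 0.27 and 0.87, with 3, 0 and 6 genes at least 2-fold higher and 0 lower. Relative to the median gene 0 passed 2-fold in any library, so the 6 in Minimal Myc were lost, and in scaled FPKM 14, 2 and 10 were higher. Pdia6, a disulfide isomerase, was 246 FPKM in Myc, 129 FPKM in MycN, 221 FPKM in Minimal Myc and 88.4 FPKM in vector. Dnajb11, a chaperone of the endoplasmic reticulum, was 39.96 FPKM in Myc, 37.3 FPKM in MycN, 72.5 FPKM in Minimal Myc and 30.8 FPKM in vector. Hsp90b1, the chaperone Grp94, was 437, 269 and 407 FPKM in Myc, MycN and Minimal Myc, against 182 FPKM in vector.

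**Figure D4:**
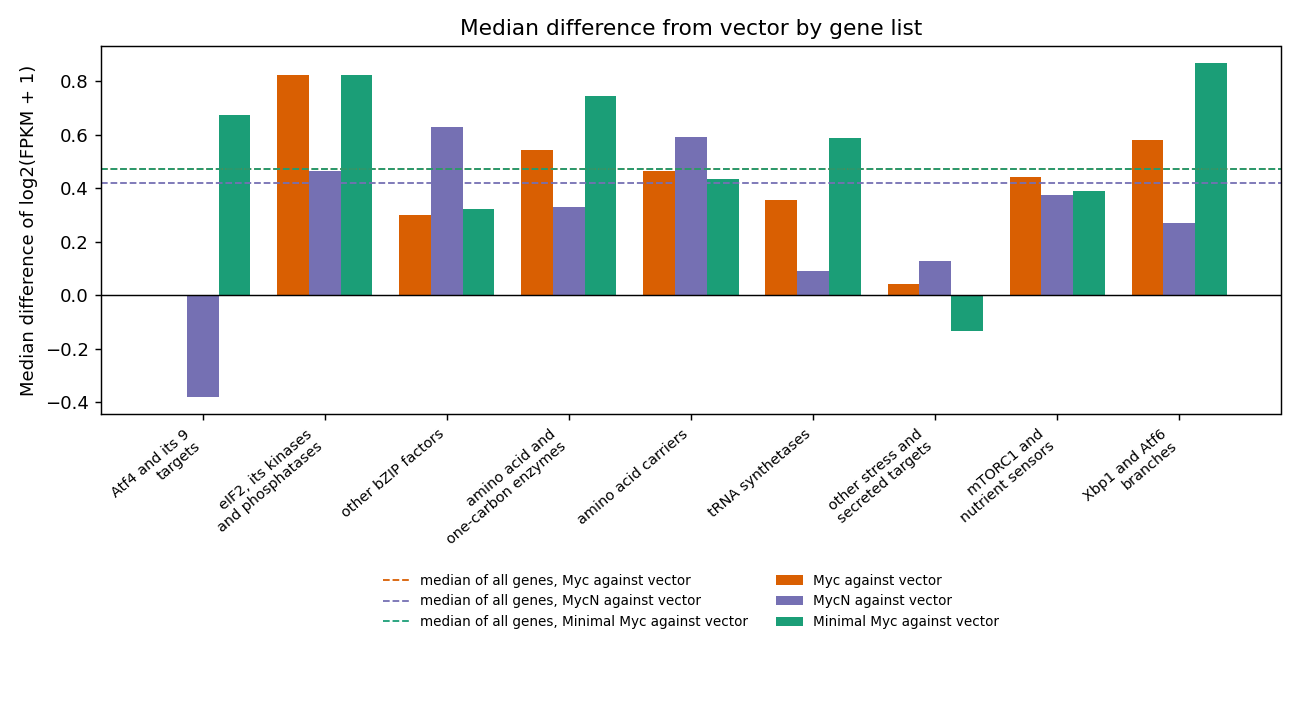
Median difference of log2(unscaled FPKM + 1) from vector (y axis) for the 10 genes and for each of 8 pathway lists (x axis) in Myc, MycN and Minimal Myc, with dashed lines at the median of all genes (0.47, 0.42 and 0.47). The 10 genes are at 0.00 and -0.38 in Myc and MycN and at 0.67 in Minimal Myc, and the other stress and secreted targets are under the dashed lines in all 3.

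Counted once each, the 125 genes of these lists had 17 at least 2-fold higher and 2 lower in Myc, 9 and 2 in MycN, and 21 and 0 in Minimal Myc, with medians of 0.49, 0.33 and 0.55. Over all genes 11.2%, 7.65% and 13.6% were higher and 1.56%, 1.86% and 1.68% lower, which of 125 genes is close to these counts. Centred, 2, 2 and 4 were higher and 4, 2 and 4 lower, and in scaled FPKM 106, 31 and 50 were higher and 1, 1 and 0 lower. Of all 11640 genes, 58, 145 and 122 were lower in scaled FPKM.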

How the data were processed

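Polyadenylated RNA from 4 cultures (1 library each) was sequenced with a protocol that keeps strand, per the labels' protocols. The authors deposited FPKM in 2 tables of 26608 identifier rows. The submitters' processing notes name mouse build mm9, Cufflinks 2.2.0 and TopHat2 2.0.11 without saying what each did. The second table, which the authors label nano-scaled, is the first times 1 factor per library. The 32 NanoString rows, which hold none of the 10 genes, were left out.

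Identical rows of a gene were merged and differing rows summed. Genes averaging at least 1 FPKM were kept, without small RNA genes. Differences are of log2(FPKM + 1), and 2-fold is a difference of 1 on it. Fragment numbers rest on transcript lengths of GENCODE, less 200 bases, and on steps in 13906 transcripts of over 1500 bases. The calculations were tested on simulated data with planted differences and exact fragment counts. Such data are simpler than the deposited FPKM, so the test does not show how well the depth estimates hold for them. The named genes are the 10, the eIF2 kinases, the 3 list genes furthest from vector in any library, and the 5 nearest profiles; Cebpd's place beside Cebpb and the Myc, Mycn, Fabp4, Rragb, Rragc, Fgf21, Gdf15 and Vegfa values were chosen after values were seen. Members and lists were chosen with earlier results of these data known. Python 3.11.15, pandas 2.3.3, numpy 2.4.6 and matplotlib 3.10.9 were used. Alternatives were a pseudocount of 0.1, centring, the scaled table, the highest row of a gene, no filter and a minimum of 5 FPKM.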

Additional observations from a re-analysis of the deposited data

How the results depend on the processing

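No paired analysis was possible because each group has 1 library. The counts of genes at least 2-fold apart among the 10 were the same with the highest row of a gene, with no filter and with a minimum of 5 FPKM. These settings could not change them, since each of the 10 has 1 value per library and all 10 average above 5 FPKM. With a pseudocount of 0.1 FPKM, Sesn2 also passed 2-fold in Minimal Myc against vector (log2 difference 1.03), which made that count 3, and the other counts were the same. In scaled FPKM the count higher than vector was 4 with Myc, 2 with MycN and 5 with Minimal Myc, the count lower in MycN than in Myc was 3, and the count higher in Minimal Myc than in Myc was 1; each follows from the factors of that table. Centred on the median difference, 2 genes were at least 2-fold lower in Myc and 5 in MycN than in vector. The counts of the 8 lists also moved with centring and scaling, as given beside each. Some list results moved as well with a pseudocount of 0.1 FPKM, a minimum of 5 FPKM or no filter. With that pseudocount the count higher in MycN went from 2 to 4 for the bZIP factors and from 1 to 3 for mTORC1 and its sensors. The shares of all genes past 2-fold with that pseudocount are not given here. Whether these rises, or that of Sesn2, are particular to these genes therefore cannot be told. Of the 60 differences (10 genes, 6 comparisons), none that passed 2-fold changed sign under any alternative run. With scaling 10 more passed 2-fold and 2 no longer did, and with centring 6 more passed it. Of the others, 16 that had not passed 2-fold changed sign with scaling and 9 with centring. Depth limits little here, since counting errors were at most 4.16%; the absence of replicates limits every comparison.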

Other observations

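The genes here were chosen after their values were seen. Rragb, a small GTPase that signals amino acid supply to mTORC1, fell under the minimum of 1 FPKM on average and so entered no count. It was 0.0790 FPKM in Myc, 0.0390 FPKM in MycN, 2.91 FPKM in Minimal Myc and 0.0442 FPKM in vector. Its paralogue Rraga and the genes of its partners, Rragc and Rragd, did not share this pattern: Rragc was 48.1 FPKM in Myc, 41.1 FPKM in MycN, 46.7 FPKM in Minimal Myc and 57.4 FPKM in vector. Among the secreted targets under the minimum, Fgf21 was 0.334 FPKM in Myc, 1.38 FPKM in MycN, 0.0756 FPKM in Minimal Myc and 0.120 FPKM in vector, and Gdf15, a common marker of the stress response, was under 1 FPKM in all 4 libraries. Vegfa, a growth factor gene that Atf4 and hypoxia both raise, was 39.98 FPKM in Myc, 60.02 FPKM in MycN, 133 FPKM in Minimal Myc and 57.1 FPKM in vector, an order opposite to that of Ddit4 for Minimal Myc against Myc.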
